A study of Mus musculus with 6 samples.

Results

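Sterol and fatty acid synthesis was followed through 36 genes: the SREBP transcription factors and their regulators, the enzymes that build cholesterol from acetyl-CoA, a sterol carrier, and the enzymes that make, elongate and desaturate fatty acids. Members were taken by symbol, with no measured value in the rule. All 36 were found among the 57010 genes of the count table, and all 36 passed the filter on low counts that left 15589 genes. The measurements are poly(A)-selected RNA-seq of whole gastrocnemius, the main calf muscle, from untreated mice aged 3 months. The mutants were 3 animals homozygous for the Dysfprmd allele in the strain B6.A-Dysfprmd/GeneJ (BLAJ), which lack dysferlin, a protein of sarcolemmal repair. The controls were 3 wild-type animals labelled C57BL/6. Mutants 1 and 2 were female. Mutant 3 and all 3 controls were male, so sex is uneven over the groups. The prmd allele was brought into the line from another strain, so any linked or residual donor sequence differs between the groups together with dysferlin.

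Cells make cholesterol from acetyl-CoA through mevalonate, squalene and lanosterol, and make saturated fatty acids from acetyl-CoA through malonyl-CoA. The SREBP factors (Srebf1 and Srebf2) turn on both routes. They are held in the endoplasmic reticulum by Scap and the Insig proteins while sterol is plentiful, and are carried to the Golgi and cleaved when it runs low. Skeletal muscle makes little fat compared with liver or adipose tissue, and much of the lipogenic RNA in a whole-muscle sample can come from fat cells, Schwann cells and other cells between the fibres. In such bulk samples, fewer cells of a type and less RNA per cell cannot be told apart.

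Read pairs counted in genes lay between 35042245 and 43733641 per library. The limit that a count of 0 allows, 3 counts, corresponded to 0.0686 to 0.0856 CPM. CPM is the count of a gene scaled to the size of its library. The members had between 76 and 16160 counts in a library, so none was near that limit. Fibre genes were abundant in every library, with the creatine kinase gene Ckm between 6975.9 and 9997.8 CPM. Dysf stood at 15.8, 14.7 and 20.3 CPM in mutants 1, 2 and 3 and at 72.3, 99.8 and 145 CPM in controls 1, 2 and 3 (edgeR adjusted p = 0.0249). Ifi202b, an interferon-inducible gene known to be nearly silent in C57BL/6 mice, had 0 counts in the mutants and 7.69, 1.02 and 2.62 CPM in the controls, which goes against the strain label of the controls. Strain background and loss of dysferlin therefore cannot be told apart in any difference given here. Control 2 stood apart in genes of immature or denervated fibres, with Chrng at 20.1 CPM against at most 0.749 CPM elsewhere. Multimapping pairs made up 9.78% in control 1 and at most 7.52% in the other libraries.

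No member was called. The edgeR quasi-likelihood test of mutants against controls gave 0 of 36 members at an adjusted p below 0.05, where 0.199% of all tested genes were called, and DESeq2 also gave 0 of 36. At an unadjusted p below 0.05 there was 1 member, Cyp51, or 2.78%, against 6.94% of all genes. Cyp51 was on the lower side, where 3.69% of all genes were, and 0 members were on the higher side, where 3.25% were. DESeq2 had 4 members at an unadjusted p below 0.05, all lower (Srebf1, Sqle, Cyp51 and Scd2). The share of all genes by that tool was 4.35%, in either direction. It was taken over 30454 genes, with no filter on low counts, so it is not a like background for the members. The authors' deposited table likewise listed 0 of 36 members past an adjusted p of 0.05. The direction leaned to lower values in the mutants: 26 of 36 members, or 72.2%, had a negative log2 fold change, against 50.2% of all genes. The median over the members was -0.17 on the log2 scale, against -0.0015 over all genes. Single members ran from -0.91 for Scd2 to 0.69 for Scd1. The lean was weaker without control 2, at 23 of 36 members, and in males only, at 20 of 36. With sex as a covariate it was also 20 of 36. The median over the members was then -0.043 with sex as a covariate and -0.039 in males only. Both females were mutants, so either fit compares the male mutant alone with the controls, and they are not separate checks.

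**Figure D1:**
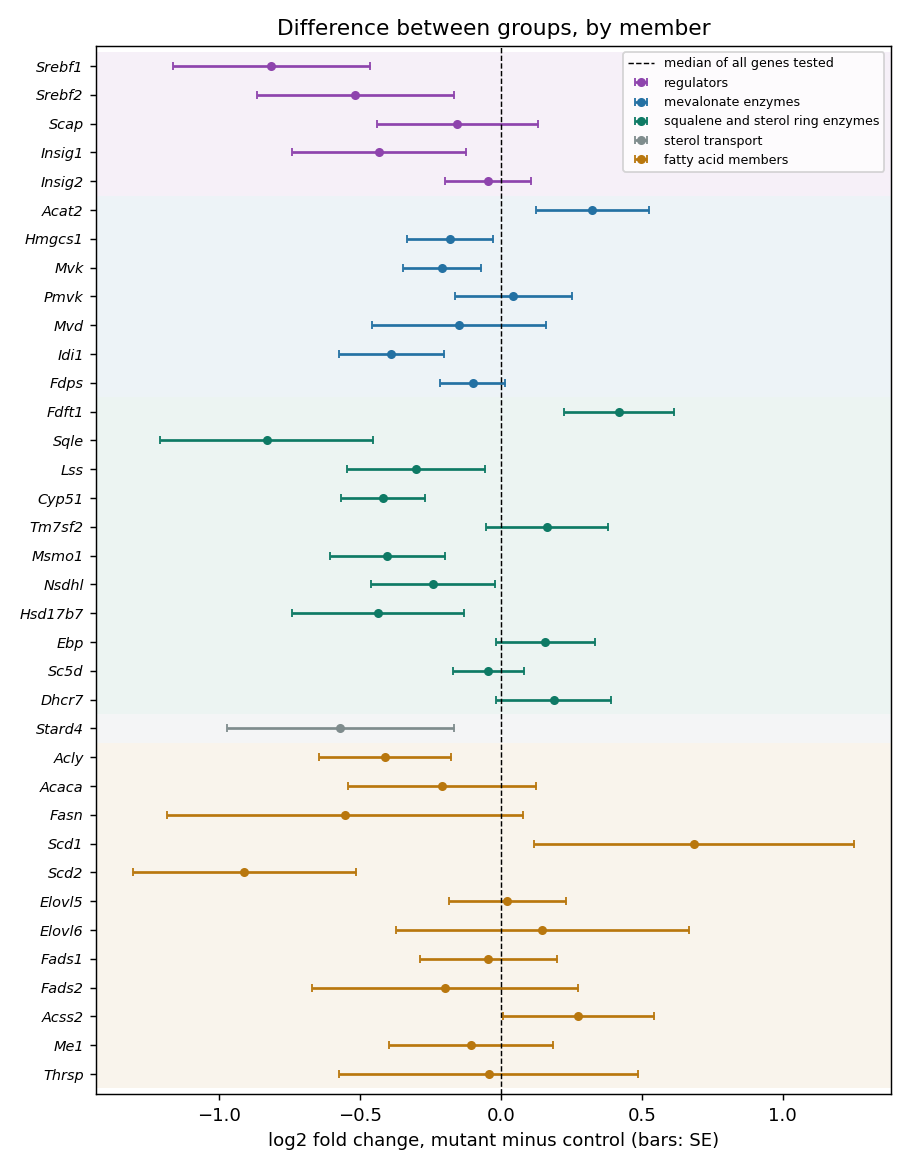
Log2 fold change of each of the 36 members, mutant minus control, with its standard error, coloured by role; the dashed line is the median of all tested genes. Of the points, 26 lie below 0, and they run from -0.91 for Scd2 to 0.69 for Scd1.

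Members differed by 2 orders of magnitude in level. Levels were divided by exon length for a rough comparison of genes. That length joins all exons annotated for a gene and can exceed that of the RNA present. The mean level over the 6 libraries was highest for Me1, the cytosolic malic enzyme that supplies NADPH, at 68.1 CPM per kb. Scd1, which puts the first double bond into stearate and palmitate, followed at 49.0 CPM per kb. Insig2, Fdft1 and Srebf1 came next at 20.9, 16.8 and 9.27 CPM per kb, then Scd2 at 8.55 CPM per kb. The lowest was Lss, which closes the sterol ring system, at 0.321 CPM per kb over a joined length of 10.8 kb. Me1 and Scd1 overlapped over the libraries, as did the neighbours Insig2 and Fdft1, and Srebf1 and Scd2. Me1, at 259, 326 and 172.2 CPM in mutants 1, 2 and 3, overlapped with 328, 188 and 299.97 CPM in controls 1, 2 and 3. Its log2 fold change was -0.11 (SE 0.29; adjusted p = 0.969 by edgeR).

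**Figure D2:**
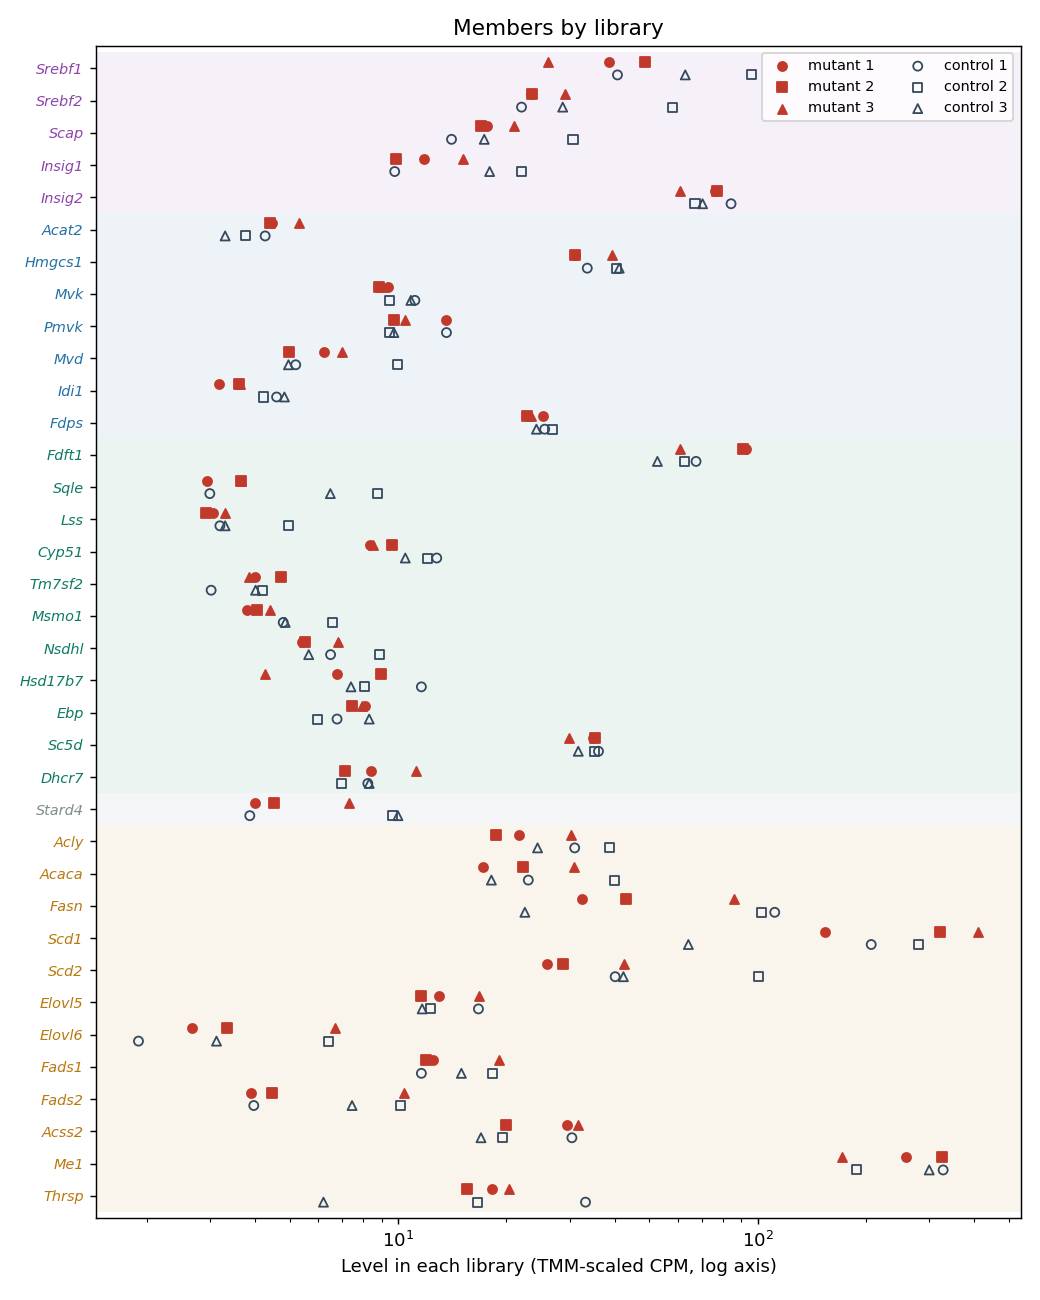
Level of each of the 36 members in every library, in TMM-scaled CPM on a log axis, with mutants filled above controls open, and background shading by role. Mutant and control points overlap for 31 members; Acat2 lies higher in all mutants and Mvk, Idi1, Cyp51 and Msmo1 lie lower.

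All 5 regulators had negative log2 fold changes, and none was called. Srebf1, which encodes SREBP-1, the main activator of fatty acid genes, stood at 38.7, 48.6 and 26.1 CPM in mutants 1, 2 and 3. It stood at 40.8, 96.1 and 62.9 CPM in controls 1, 2 and 3. Control 1 lay within the range of the mutants, and controls 2 and 3 lay above all of them. The means were 37.8 ± 11.3 CPM in mutants and 66.6 ± 27.8 CPM in controls (SD, n = 3 each), and the log2 fold change was -0.82 (SE 0.35; adjusted p = 0.726 by edgeR). It was -0.46 without control 2 and -1.08 without control 1. With sex as a covariate, a fit that compares mutant 3 alone with the controls, it was -1.35. Srebf2, which encodes the main activator of sterol genes, had 23.4, 23.5 and 29.1 CPM in the mutants and 22.1, 58.1 and 28.7 CPM in the controls. Only control 2 lay outside the range of the other libraries by a wide margin, and without it the log2 fold change of -0.52 became -0.0028.

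Scap, the sterol sensor that escorts SREBP, had the same highest and lowest libraries as Srebf2. It had 17.7, 17.0 and 21.1 CPM in the mutants and 14.1, 30.7 and 17.4 CPM in the controls, and again control 2 was the highest library. The log2 fold change was -0.16 (SE 0.29), and 0.24 without control 2. Insig1, the sterol-responsive anchor of Scap and itself an SREBP target, had 11.8, 9.89 and 15.1 CPM in the mutants and 9.79, 22.0 and 18.0 CPM in the controls, with a log2 fold change of -0.44 (SE 0.31). Controls 2 and 3 lay above all mutants and control 1 below them. Insig2, its paralog, was the steadiest regulator, at 76.2, 77.2 and 60.9 CPM in the mutants and 84.3, 67.0 and 70.3 CPM in the controls, with a log2 fold change of -0.05 (SE 0.15). Per kb, Insig2 exceeded Insig1 in every library, by 5.76-, 6.95- and 3.58-fold in the mutants and 7.67-, 2.71- and 3.48-fold in the controls.

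**Figure D3:**
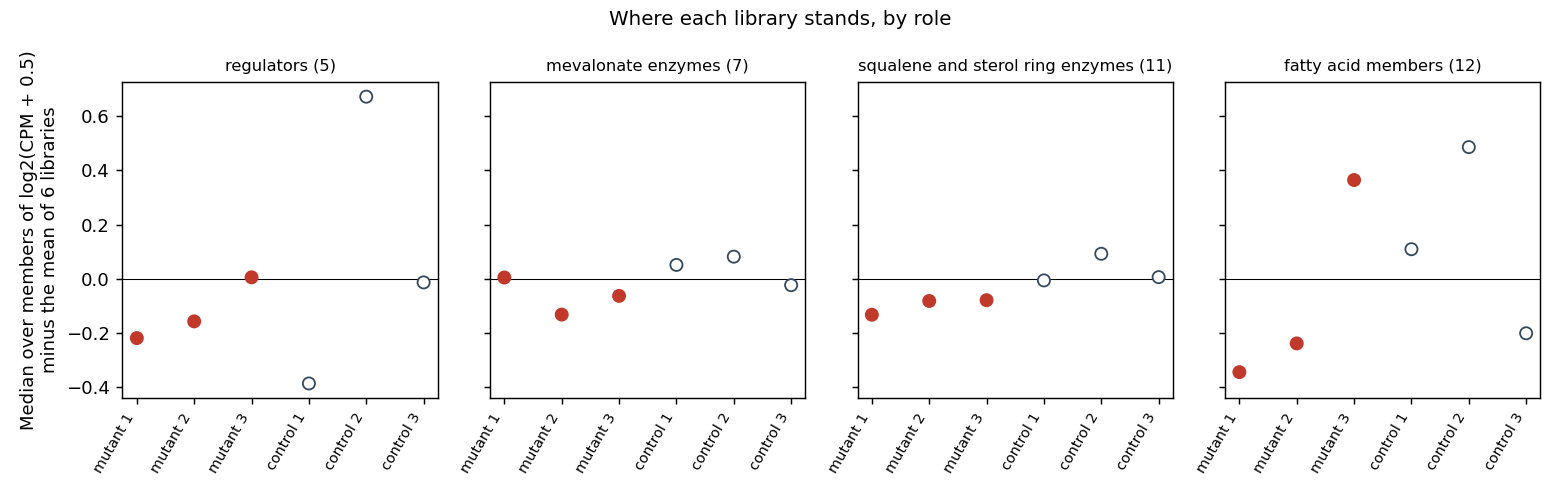
Median over the members of each role of log2(CPM + 0.5) minus the gene's mean over the 6 libraries, for each mutant and control library. Control 2 lies at 0.67 for the regulators and 0.49 for the fatty acid members; the ring enzymes span -0.13 to 0.09.

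Of the 7 mevalonate enzymes, 5 had negative and 2 positive log2 fold changes. Hmgcs1, which makes HMG-CoA, had 31.1, 31.1 and 39.5 CPM in the mutants and 33.6, 40.6 and 41.2 CPM in the controls, with a log2 fold change of -0.18 (SE 0.15). Mutant 3 lay between the controls. Mvk, mevalonate kinase, had 9.36, 8.85 and 9.01 CPM in the mutants and 11.1, 9.47 and 10.9 CPM in the controls, without overlap, and the log2 fold change was -0.21 (SE 0.14; adjusted p = 0.834 by edgeR). The gap between the nearest libraries, mutant 1 and control 2, was narrow. Idi1, which isomerises the 5-carbon isoprenoid unit, had 3.17, 3.61 and 3.64 CPM in the mutants and 4.60, 4.24 and 4.83 CPM in the controls. Its groups did not overlap, and the log2 fold change was -0.39 (SE 0.19; adjusted p = 0.761 by edgeR). Acat2, the cytosolic thiolase at the entry of the pathway, went the other way, at 4.47, 4.41 and 5.32 CPM in the mutants and 4.27, 3.76 and 3.31 CPM in the controls. Every mutant was above every control, and the log2 fold change was 0.32 (SE 0.20; adjusted p = 0.823 by edgeR). Pmvk, Mvd and Fdps, the kinase, decarboxylase and farnesyl diphosphate synthase of the same branch, lay between -0.15 and 0.04.

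Among the 11 squalene and ring enzymes, 7 had negative and 4 positive log2 fold changes. Cyp51, the lanosterol demethylase and the single member at an unadjusted p below 0.05, had 8.35, 9.59 and 8.53 CPM in the mutants and 12.8, 12.1 and 10.5 CPM in the controls. Every mutant lay below every control. The means were 8.82 ± 0.671 CPM in mutants and 11.8 ± 1.20 CPM in controls (SD, n = 3 each), with a log2 fold change of -0.42 (SE 0.15, edgeR unadjusted p = 0.0246, adjusted p = 0.655). The unadjusted p of Cyp51 stayed below 0.05 without mutant 2 or control 3, and not without mutant 1, mutant 3, control 1 or control 2. It was 0.0849 with sex as a covariate and 0.137 in males only, by edgeR. The members below 0.05 were Srebf1 and Hsd17b7 with sex as a covariate, and Hsd17b7 alone in males only. Msmo1, a methyl oxidase that acts later, had 3.81, 4.05 and 4.40 CPM in the mutants and 4.79, 6.57 and 4.86 CPM in the controls. Its groups also did not overlap, and the log2 fold change was -0.40 (SE 0.20; adjusted p = 0.779 by edgeR). Fdft1, squalene synthase, which commits farnesyl diphosphate to sterols, had 92.7, 90.8 and 60.7 CPM in the mutants and 67.4, 62.8 and 52.6 CPM in the controls. The female mutants 1 and 2 were above every other library, and the male mutant 3 lay among the male controls. The log2 fold change of 0.42 (SE 0.19) was -0.0024 in males only.

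In all, 4 of 36 members (11.1%) lay lower in every mutant than in any control, against 6.09% of all genes, and 1 (2.78%) lay higher, against 5.97%. All 5 were sterol enzymes, which were 18 of the 36 members. The sterol enzymes had a median log2 fold change of -0.17, which was -0.06 without control 2 and -0.09 in males only. Stard4, which carries cholesterol between membranes, had 3.99, 4.52 and 7.30 CPM in the mutants and 3.87, 9.63 and 9.99 CPM in the controls. Controls 2 and 3 were above all mutants and control 1 was below them, and the log2 fold change was -0.57 (SE 0.40). The remaining ring enzymes Lss, Nsdhl, Hsd17b7, Sc5d, Tm7sf2, Ebp and Dhcr7 lay between -0.44 and 0.19.

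SREBPs bind sterol regulatory elements, usually beside a CCAAT box bound by NF-Y. The promoters of the 4 members whose mutants all lay below the controls are shown with that of Hmgcs1. Among members with a window, only Hmgcs1 matched the form of the element searched here. The promoters shown are RefSeq windows on GRCm38.p6, 5′ to 3′ on the gene's strand. They run from 250 bases before to 50 bases after the annotated start. Capitals mark TCACNCCAC, a form of the sterol regulatory element, and CCAAT, on either strand (ATTGG is CCAAT read on the other strand), and no marked matches share bases. Hmgcs1 lies at chr13:119690101-119690400 on the plus strand, with 1 TCACNCCAC and 4 CCAAT matches. Mvk lies at chr5:114444019-114444318 on the plus strand with 5 CCAAT matches, and Idi1 at chr13:8885356-8885655 on the plus strand with 2. Cyp51 lies at chr5:4104648-4104947 on the minus strand with 1 CCAAT match, and Msmo1 at chr8:64733529-64733828 on the minus strand with 3.
Hmgcs1: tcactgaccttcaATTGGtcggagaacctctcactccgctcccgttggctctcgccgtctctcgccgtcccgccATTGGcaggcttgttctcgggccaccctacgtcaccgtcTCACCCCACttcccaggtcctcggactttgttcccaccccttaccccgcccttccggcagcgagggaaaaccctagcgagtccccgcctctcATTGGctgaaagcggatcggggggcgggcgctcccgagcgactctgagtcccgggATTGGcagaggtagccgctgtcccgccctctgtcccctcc
Mvk: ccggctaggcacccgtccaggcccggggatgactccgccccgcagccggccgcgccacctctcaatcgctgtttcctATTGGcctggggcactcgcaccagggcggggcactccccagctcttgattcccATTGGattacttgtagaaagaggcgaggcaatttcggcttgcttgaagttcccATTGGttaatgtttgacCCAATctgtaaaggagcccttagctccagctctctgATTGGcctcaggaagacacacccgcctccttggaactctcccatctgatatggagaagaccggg
Idi1: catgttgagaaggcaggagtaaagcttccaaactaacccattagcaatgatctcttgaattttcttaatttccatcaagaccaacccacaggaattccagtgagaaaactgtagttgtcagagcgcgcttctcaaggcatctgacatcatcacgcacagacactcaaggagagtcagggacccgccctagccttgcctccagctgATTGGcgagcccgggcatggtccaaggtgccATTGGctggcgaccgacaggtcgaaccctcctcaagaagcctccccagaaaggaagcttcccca
Cyp51: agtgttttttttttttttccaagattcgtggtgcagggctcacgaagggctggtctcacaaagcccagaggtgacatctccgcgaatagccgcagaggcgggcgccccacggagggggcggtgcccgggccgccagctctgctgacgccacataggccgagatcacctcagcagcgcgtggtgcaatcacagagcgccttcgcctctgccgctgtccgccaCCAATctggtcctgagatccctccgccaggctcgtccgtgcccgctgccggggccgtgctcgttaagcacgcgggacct
Msmo1: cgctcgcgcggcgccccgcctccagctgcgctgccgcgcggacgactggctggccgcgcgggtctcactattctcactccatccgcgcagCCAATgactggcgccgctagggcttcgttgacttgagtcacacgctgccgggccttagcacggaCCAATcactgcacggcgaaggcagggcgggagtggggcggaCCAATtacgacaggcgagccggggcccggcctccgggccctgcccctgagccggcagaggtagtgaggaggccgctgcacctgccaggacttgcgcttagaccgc

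Windows were matched for 29 members; Fdps, Fdft1, Sqle, Stard4, Scd1, Scd2 and Fads1 had none. A CCAAT match on either strand stood in 24 of 29 members (82.8%), against 41.1% of the 27025 genes with a window. TCACNCCAC stood in 1 of 29 members (3.45%), against 1.44%. Other forms of the sterol regulatory element were not searched, so a window without a match can still hold one. The E-box CACGTG, bound by factors such as USF, stood in 6 of 29 (20.7%), against 8.09%. The shares of all genes include genes that failed the filter on low counts, which all members passed. They are therefore not a like background for the members. The matches are of letters in a window and are not binding sites. The non-overlapping Mvk, Idi1, Cyp51 and Msmo1 shared CCAAT with 20 further members.

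Sqle encodes squalene epoxidase, a rate-limiting step of sterol synthesis. Sqle, Hmgcs1, Stard4, Acly and Fads2 lay outside the rule for naming genes, and their values in each library are given by a choice made after those values were seen. In the deposited unstranded counts it had 2.93, 3.67 and 3.66 CPM in the mutants and 3.00, 8.79 and 6.48 CPM in the controls, and the log2 fold change was -0.83 (SE 0.38; adjusted p = 0.749 by edgeR). Control 1 lay within the range of the mutants and controls 2 and 3 above it. The per-library files separate the strands. On the opposite strand there were 1.59, 1.93 and 1.45 CPM in the mutants and 1.498, 1.27 and 1.70 CPM in the controls, a similar level in all 6. On the strand of Sqle there were 1.35, 1.74 and 2.21 CPM in the mutants and 1.498, 7.52 and 4.78 CPM in the controls. The opposite strand thus held 48.2% of the stranded read pairs in the mutants and 24.0% in the controls. From strand-matched counts the log2 fold change was -1.38 (SE 0.55, edgeR unadjusted p = 0.0397, adjusted p = 0.687), and 6.96% of all genes had an unadjusted p below 0.05 in that count. Control 1 remained with the mutants. No gene is annotated across Sqle on the other strand in GENCODE M21.

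**Figure D4:**
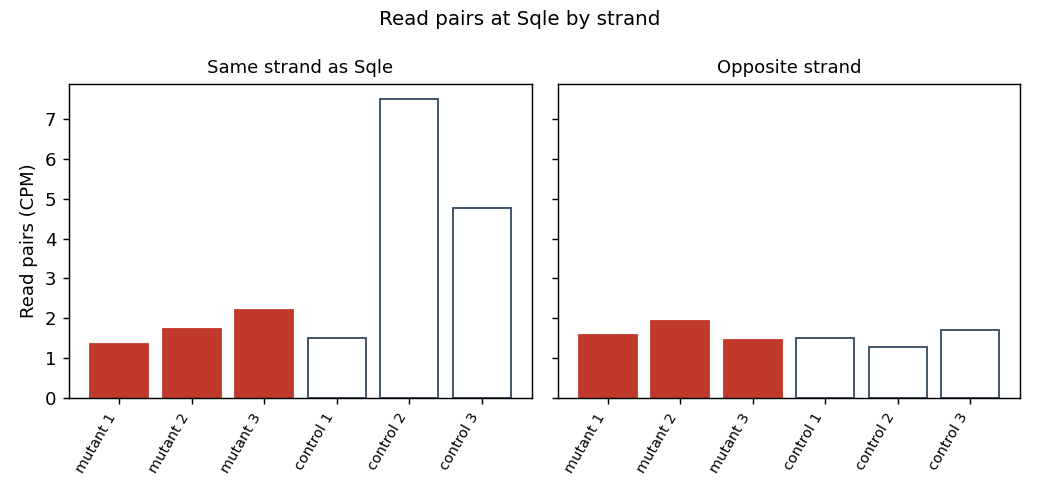
Read pairs at Sqle on its own and on the opposite strand, in CPM, for each library; bars start at 0. The opposite strand holds 1.27 to 1.93 CPM in all 6 libraries, while controls 2 and 3 stand at 7.52 and 4.78 CPM on the gene's own strand.

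For 30 of 36 members the strand-matched count was within 5% of the unstranded one. It was higher by more than 5% for 5 members, as read pairs in overlaps with other genes are left out of an unstranded count. Acss2, which activates acetate to acetyl-CoA, had 143% and overlaps Gss and other genes on the opposite strand. Hmgcs1 had 142%, Scap 127%, Lss 114% and Idi1 106%. The fold changes of these 5 moved little: that of Acss2 was 0.27 in both counts, and that of Hmgcs1 was -0.20 strand-matched and -0.18 unstranded. Acat2 had 0 opposite-strand counts in the mutants and 0.300, 0.181 and 0.407 CPM in controls 1, 2 and 3, and its strand-matched log2 fold change was 0.44 (SE 0.21). Fdft1, which overlaps Ctsb, had 8.93% of its stranded pairs on the opposite strand in mutants and 8.77% in controls.

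The fatty acid members varied widely between libraries. The ratio of the highest to the lowest library had a median of 2.49 over these 12 genes, against 1.59 over the 18 sterol enzymes and 1.73 over all genes. None of the 12 had groups that did not overlap, where 6.09% of all genes lay lower and 5.97% higher in that way. Their median log2 fold change was -0.08, with 8 negative and 4 positive. That median was 0.24 with sex as a covariate and 0.25 in males only, both set by mutant 3, the male mutant, alone against the controls. By library, their median deviation on the log2 scale was -0.34, -0.24 and 0.36 in mutants 1, 2 and 3 and 0.11, 0.49 and -0.20 in controls 1, 2 and 3. Mutant 3 was the highest library for 6 of the 12, against 19.1% of all genes, and control 3 the lowest for 4, against 15.8%.

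Fasn, fatty acid synthase, had 32.5, 43.0 and 85.8 CPM in the mutants and 112, 103 and 22.5 CPM in the controls. The lowest value was that of control 3, under all mutants, while controls 1 and 2 were above them. Its log2 fold change of -0.55 (SE 0.63; adjusted p = 0.916 by edgeR) was 0.13 in males only, -1.003 without control 3, -1.07 without mutant 3 and -0.23 without control 1. Acly, which makes cytosolic acetyl-CoA from citrate, had 21.7, 18.7 and 30.4 CPM in the mutants and 31.0, 38.7 and 24.4 CPM in the controls. Mutants 1 and 2 were under all controls, mutant 3 was not, and the log2 fold change was -0.41 (SE 0.24). Thrsp, the nuclear lipogenic protein Spot 14, had 18.3, 15.6 and 20.4 CPM in the mutants and 33.2, 16.6 and 6.20 CPM in the controls. The mutants lay within the 5.35-fold range set by the controls, and the log2 fold change was -0.04 (SE 0.53).

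The stearoyl-CoA desaturase paralogs Scd1 and Scd2 had opposite signs. Scd1 had 154, 322 and 411 CPM in the mutants and 207, 281 and 64.2 CPM in the controls, and the log2 fold change was 0.69 (SE 0.57; adjusted p = 0.879 by edgeR). It was 0.27 without control 3 and 1.13 without control 2. Control 3 was the lowest library and mutants 2 and 3 the highest. Scd2 had 26.0, 28.8 and 42.4 CPM in the mutants and 40.2, 101 and 42.3 CPM in the controls, and the log2 fold change was -0.91 (SE 0.40; adjusted p = 0.734 by edgeR). Mutant 3 was level with controls 1 and 3, and control 2 stood far above. Without control 2 the value was -0.35. Elovl6, the elongase of palmitate, had 2.67, 3.33 and 6.67 CPM in the mutants and 1.90, 6.41 and 3.13 CPM in the controls, with mutant 3 and control 2 high and a log2 fold change of 0.15 (SE 0.52). The desaturase Fads2 had the same pair of high libraries, at 3.91, 4.46 and 10.4 CPM in the mutants and 3.97, 10.1 and 7.45 CPM in the controls. Acaca, Elovl5, Fads1 and Acss2 lay between -0.21 and 0.27.

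Markers of other cell types also differed between libraries. The 11 adipocyte markers, of which 9 had a positive log2 fold change and none was at 0, summed to 484, 626 and 654 CPM in the mutants and 579.9, 534 and 371 CPM in the controls. Pnpla2, a triglyceride lipase that muscle fibres also express, held 140 to 360 CPM of that sum. The other 10 summed to 269, 458 and 424 CPM in the mutants and 346, 174 and 232 CPM in the controls, a division made after the values were seen. Mutant 2 was then the highest and control 2 the lowest library. Fabp4 was the largest part of that reduced sum in every library. It had 166, 194 and 242 CPM in the mutants and 151, 126 and 160 CPM in the controls. The defining markers Adipoq and Plin1 were highest in mutant 2, at 31.3 and 23.1 CPM. The 10 Schwann cell and myelin markers, of which Pmp2 was nearly absent, summed to 139.6, 240.1 and 559 CPM in the mutants and 193, 406 and 121 CPM in the controls, with 7 of 9 tested positive. Mutant 3 and control 2, the libraries high in Elovl6 and Fads2, were the highest in this sum. The 10 macrophage markers summed to 238, 138 and 188 CPM in the mutants and 131, 117 and 187 CPM in the controls. Of these 10, 9 had a positive log2 fold change. Sums of the 7 fibroblast markers were 972, 696 and 4275.4 CPM in the mutants and 714, 1086.3 and 3424.1 CPM in the controls. Of these 7, 4 were positive. The high fibroblast sums of mutant 3 and control 3 lay in the collagen genes Col1a1 and Col3a1, together 3633 and 2784 CPM there. The other 5 fibroblast markers summed to 556, 429 and 643 CPM in the mutants and 505, 555 and 640 CPM in the controls. The part of these cells in the values of the members was not tested.

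**Figure D5:**
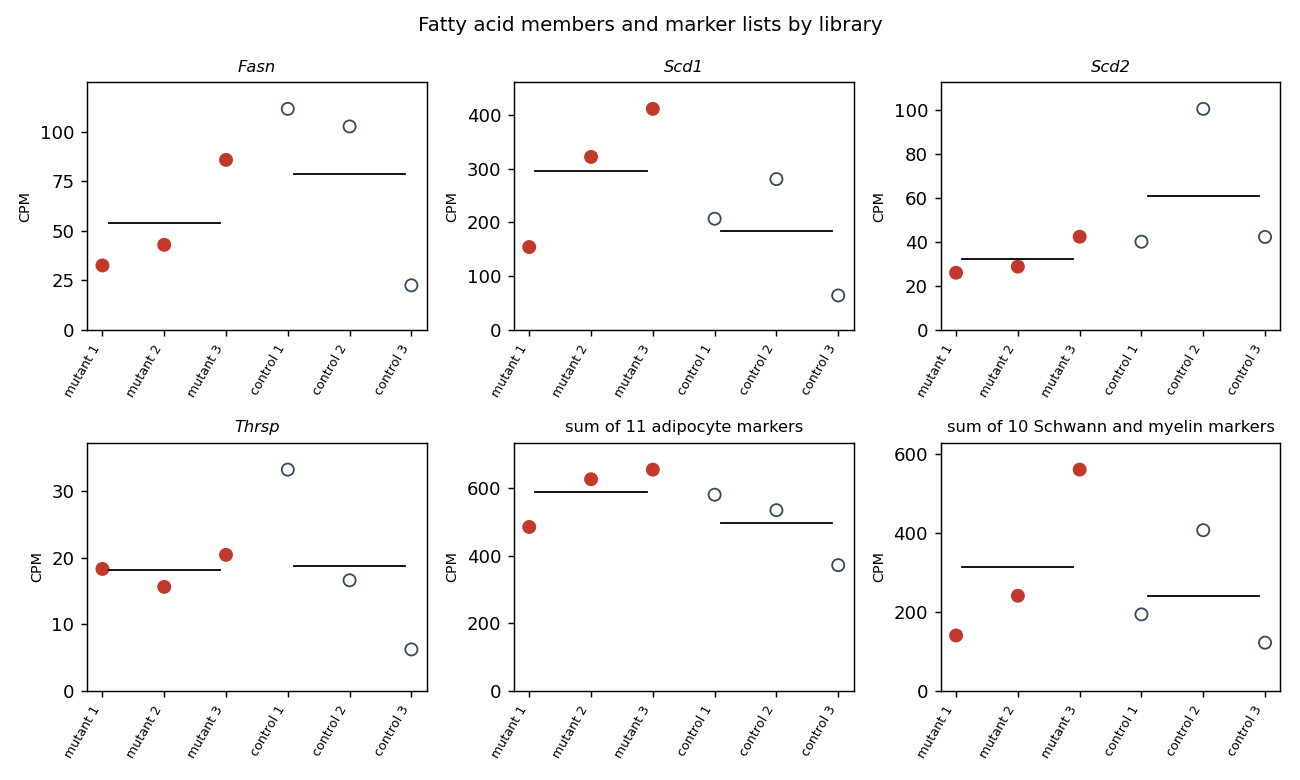
Level in CPM of Fasn, Scd1, Scd2 and Thrsp and the summed level of adipocyte and of Schwann and myelin markers in each library, mutants filled and controls open, with the group mean as a line. Control 3 is lowest for Fasn at 22.5 CPM and Scd1 at 64.2 CPM, and mutant 3 and control 2 are highest for the Schwann sum at 559 and 406 CPM.

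A further 41 genes of the same metabolism were followed beside the members: elongation cycle partners, proteases and ligases of the SREBP route, sterol-sensing receptors and their targets, and enzymes that use or remove acyl-CoA. None was called by edgeR, and 7 (17.1%) had an unadjusted p below 0.05, against 6.94% of all genes, with 5 higher and 2 lower in the mutants, where the shares of all genes were 3.25% and 3.69%. The list was drawn up with earlier results of these data known and is not complete, so its share is a description and does not set these genes apart from the rest. Acsl3, an acyl-CoA synthetase outside the list and picked after its value was seen, had a log2 fold change of -1.19 (SE 0.32, edgeR unadjusted p = 0.00703, adjusted p = 0.496). DESeq2 called Gpam and Tecr, with adjusted p = 0.00114 and 0.0247, where it called 1.08% of the genes it gave an adjusted p.

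Gpam, the mitochondrial acyltransferase that starts glycerolipid synthesis from new fatty acids and is an SREBP-1 target, had 289, 274 and 282 CPM in the mutants. It had 143, 171 and 179.6 CPM in the controls. Every mutant was well above every control, with means of 282 ± 7.39 CPM in mutants and 165 ± 19.1 CPM in controls (SD, n = 3 each), and the log2 fold change was 0.77 (SE 0.14; adjusted p = 0.205 by edgeR). With any 1 library left out the log2 value lay between 0.68 and 0.83. Tecr, the reductase that ends each round of very long chain elongation, had 320.1, 343 and 320.5 CPM in the mutants and 536, 447 and 504 CPM in the controls. Every mutant was below every control, and the log2 fold change was -0.60 (SE 0.14; adjusted p = 0.382 by edgeR).

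Acss1, which activates acetate in mitochondria, had 46.1, 33.9 and 41.6 CPM in the mutants and 31.4, 18.2 and 22.0 CPM in the controls (log2 0.76, SE 0.22). Mlycd, which breaks down malonyl-CoA, had 110.3, 100.3 and 91.9 CPM in the mutants and 80.5, 50.5 and 75.0 CPM in the controls (log2 0.55, SE 0.19). Neither gene's groups overlapped. Por, the reductase that feeds electrons to Cyp51 and Sqle, had 31.7, 32.1 and 30.4 CPM in the mutants and 26.2, 23.2 and 21.5 CPM in the controls (log2 0.41, SE 0.12). Mlxipl, the glucose-responsive lipogenic factor ChREBP, had 59.3, 64.3 and 79.5 CPM in the mutants and 52.3, 44.4 and 54.5 CPM in the controls (log2 0.42, SE 0.16). Both were higher in every mutant. Mbtps2, the site-2 protease that frees SREBP from the membrane, had 18.3, 24.2 and 18.8 CPM in the mutants and 25.6, 27.3 and 25.9 CPM in the controls (log2 -0.36, SE 0.15), lower in every mutant. None of these 5 was called by edgeR or DESeq2.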

How the data were processed

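RNA-seq libraries of gastrocnemius from 3 mutants and 3 controls were compared. The authors' raw counts of read pairs were deposited as a matrix. It equals the unstranded column of the per-library files in all 57010 genes, and those files also count the strands separately. STAR 2.7.11b, DESeq2 1.50.2 and GRCm39 are named in the submitters' processing notes, which give no annotation release. The authors' deposited table gives the log2 fold change, its statistic as a score, the mean normalized signal and the p-value per gene; it was used to count members past the threshold. Entries that name no gene made up 18.5% to 22.3% of pairs and were left out. Unstranded counting merges both strands, and uncounted multimapping pairs lower genes with close copies.

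The test was edgeR 4.0.16 (R 4.3.3): TMM, filterByExpr with a minimum count of 10, and its robust quasi-likelihood test for the group effect, with Benjamini-Hochberg adjustment over all genes; a call is an adjusted p below 0.05. CPM use TMM-scaled totals, and SE comes from the F statistic. The procedure was tested on simulated data. Symbols, exon lengths and overlaps between genes are from GENCODE M21 (GRCm38), whose coordinates were not applied to the counts. Named members were those with an unadjusted p below 0.05 or groups that did not overlap, the 5 regulators, the 6 highest per kb and the 6 with the widest range, and the further pathway genes at an unadjusted p below 0.05. Members and lists were chosen with earlier results of these data known. Alternatives were other normalizations and filters, DESeq2 1.42.0, limma-voom (limma 3.58.1), sex or the replicate number as a term, males only, strand-matched counts and each library left out. All pairs of libraries differed beyond sampling noise. By chi-square per degree of freedom, mutants 1 and 2 were the closest pair, at 55.1. Control 1 was closer to mutants 1 and 2, at 77.4 and 119, than to controls 2 and 3, at 229 and 199. Plots used matplotlib 3.10.9.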

Additional observations from a re-analysis of the deposited data

How the results depend on the processing

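The number of called members was 0 in every one of the 16 alternatives run. The number at an unadjusted p below 0.05, 1 as reported, was 3 with no filter on low counts (5.17% of all genes), 4 by DESeq2 (4.35%), 2 with sex as a covariate (5.66%), 3 with the replicate block (7.5%), 2 from strand-matched counts (6.96%), and 0 to 7 when 1 library was left out. The shares by DESeq2 and with no filter are over genes that include those with low counts. The value of 7 came without control replicate 1 (9.53% of all genes) and that of 0 without control replicate 2 (8.15%) or mutant replicate 1 (3.75%). The median log2 fold change of the members ran from -0.28 to -0.06 with 1 library left out, and was -0.043 with sex as a covariate and -0.039 in males only. That of the sterol enzymes ran from -0.20 to -0.058, and was -0.095 with sex as a covariate and -0.093 in males only. That of the fatty acid members ran from -0.32 to 0.04 with 1 library left out, and turned to 0.245 with sex as a covariate and 0.248 in males only. Of 270 values of named genes in the 10 settings that left out no single library, 258 kept direction and call and 10 changed sign, none of them called: Scap at 0.025 with sex and 0.029 in males only, Fdft1 at -0.0052 and -0.0024, Fasn at 0.12 and 0.13, Thrsp at 0.13 and 0.13, and Thrsp at 0.25 by limma-voom and 0.22 with the replicate block. The other 2 were Gpam (0.77) and Tecr (-0.60), called by DESeq2 alone. With 1 library left out, values ran from -0.38 to 0.24 for Scap, -0.11 to 0.054 for Insig2, -0.35 to 0.75 for Elovl6, -0.34 to 0.11 for Me1 and -0.47 to 0.66 for Thrsp. Without a change of sign they ran from -0.71 to -0.18 for Insig1, -1.17 to -0.47 for Sqle, -0.90 to -0.37 for Stard4, -0.64 to -0.23 for Acly and -1.16 to -0.35 for Scd2; the cause was not tested. Males only left 1 mutant, assumed to vary like the controls, and with sex as a covariate the group effect rests on that same mutant. Deviations of same-numbered mutants and controls correlated at 0.23, -0.06 and 0.22, and those of differently numbered ones at -0.27 to 0.16. Whether the samples were paired by number was not settled by these values.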

Other observations

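The ratio of Scd1 to Scd2, each per kb of exon, was chosen after the values of both were seen and was not tested. It was 6.62, 12.5 and 10.8 in mutants 1, 2 and 3 and 5.75, 3.12 and 1.69 in controls 1, 2 and 3, so that the groups did not overlap while those of each gene alone did. Mutant 1 and control 1 were the nearest libraries. The ratio of Srebf1 to Srebf2, formed in the same way, was 2.11, 2.64 and 1.15 in the mutants and 2.36, 2.11 and 2.79 in the controls, and its groups overlapped. Control 2 was the highest of the 6 libraries for 13 of 36 members, against 19.8% of all genes, and mutants 1 and 2 for 1 member each, against 12.5% and 13.2% of all genes.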
